A study of Mus musculus with 82 samples.

Results

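The comparison described here is that of primary mouse aortic vascular smooth muscle cells (aVSMC) incubated for 24 h with EGF and U46619 together against the same cells incubated with U46619 alone. The members are the 6 EGF+U46619 and the 6 U46619 libraries, 12 of the 82 libraries of the series, chosen by their labels and paired by the mouse the cells came from. All genes outside chromosomes 9, X, Y and MT were examined. The study asked how activation of the epidermal growth factor receptor (EGFR), the thromboxane receptor (TP) and the angiotensin II receptor, alone or combined, changes gene expression in these cells. Cells of C57BL/6 mice were grown in medium with serum, insulin, hydrocortisone and EGF, so every group had met EGF before, and were then kept for 24 h in medium without supplements. EGF was given at 10 µg/L, U46619, a stable agonist of the TP, at 1 µM and angiotensin II (AngII) at 10 nM. Beside the 2 groups compared, the text uses the control and EGF groups and the EGF+AngII+U46619 group of the same 6 mice at 24 h, and 5 U46619 and 5 EGF+U46619 cultures of a separate 48 h incubation. Each culture of a group came from a different mouse at 24 h, while at 48 h the labels give 2 of the 5 culture sets the same mouse number. Age and sex of the mice are not given in the sources used here. RNA was enriched for poly(A) and read counts per gene were compared.

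EGF binds the EGFR, a receptor tyrosine kinase of the ERBB family, and signals through the RAS-ERK cascade and through PI3K and AKT. ERK induces immediate early transcription factors such as those of the EGR and FOS families together with its own feedback inhibitors, the DUSP phosphatases and Sprouty proteins, and drives cyclin D1 and entry into the cell cycle. The TP is a G-protein-coupled receptor that contracts smooth muscle, and it can also engage the EGFR, a process called transactivation. Growth factors are known to move vascular smooth muscle cells from a contractile state, rich in smooth muscle myosin and actin, towards a proliferating state.

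The 12 libraries held between 18925977 and 20594473 counts. Of 55401 genes in the table, the 7075 on chromosomes 9, X, Y and MT were listed at 0 in every library, as were the 657 genes of chromosome 8 beyond position 97876154 (GRCm38), 312 of them protein-coding, so no value is given for these. In total 14653 genes were tested, 12144 of them protein-coding. Markers of smooth muscle were present in every library, with a summed level of 6774 to 26570 FPM (fragments scaled to a common library size) with U46619 and 3283 to 22925 FPM with EGF+U46619. The smooth muscle sum was lower with EGF+U46619 than with U46619 in 6 of 6 mice. Acta2, the smooth muscle actin, alone had 1631 to 14753 FPM and made up most of the sum. With U46619 its median was 11570 FPM, beside 16438.5 FPM for the sum. The medians of Cald1 (1943 and 2042 FPM) and Smtn (134 and 145 FPM) were higher with EGF+U46619, and those of all other smooth muscle markers were lower. Markers of adventitial fibroblasts summed to 239 to 2289 FPM and 233 to 1320 FPM. Leukocyte markers summed to 23.8 to 78.0 and 24.8 to 61.9 FPM. Among the 10 leukocyte markers, Ptprc, Itgam and Tyrobp were at 0 in all 12 libraries. Lyz2 ran from 6.58 to 49.8 FPM, Csf1r from 2.69 to 27.6 and Cd14 from 0.703 to 21.4. Adgre1, Laptm5, Fcer1g and C1qa reached at most 3.51 FPM. Endothelial markers differed most between mice, from 3.14 to 2036 FPM with U46619 and from 2.30 to 2617 FPM with EGF+U46619, and were highest in mouse 6 in both groups. In such bulk samples fewer cells of a type and less RNA per cell cannot be told apart.

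No gene passed the test between EGF+U46619 and U46619 at 24 h (0 of 14653 genes, 0%). A call needed an adjusted p (false discovery rate, FDR) under 0.05 in edgeR and in DESeq2 and a group mean of at least 5 FPM, and either tool alone with that minimum called 0 genes as well. The lowest FDR in edgeR was 0.0869, for Hal, which encodes a histidine-degrading enzyme. In DESeq2, Serpina3c, a secreted protease inhibitor, had an FDR of 0.0332 and Hal of 0.0466. Both genes were scarce: Hal ran from 0 to 3.81 FPM with U46619 and from 0 to 0.322 FPM with EGF+U46619, and Serpina3c from 0.155 to 4.42 FPM and from 0 to 0.258 FPM. With U46619, Hal had 3.81 FPM in mouse 3, 2.09 FPM in mouse 5 and at most 0.150 FPM in any other mouse. Without adjustment, 364 genes had a p under 0.05 in both tools, 400 in edgeR and 460 in DESeq2. Of the 364, 198 (1.35% of all genes tested) were lower with EGF and the others (1.13%) higher. In 6 of 6 mice, 565 genes (3.86%) were higher and 380 (2.59%) lower, and the median log2-fold change of all genes was 0.01. The 95% intervals give the precision of this fit, which used all 42 libraries of 24 h. For 93.2% of the 10103 genes with at least 5 FPM the interval lay within 2-fold in either direction, and for 72.0% within 1.5-fold. The fit of only the 2 groups gave 98.1% and 87.9% of 10055 genes. When only the 2 groups were fitted, DESeq2 alone called 232 genes, 139 higher (1.09% of 12752 genes) and 93 lower (0.729%), while edgeR called 0. Genes with an unadjusted p under 0.05 in both tools were then 715 higher (5.61%) and 582 lower (4.56%). DESeq2's count alone in that fit was added as a result after it was seen.

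**Figure D1:**
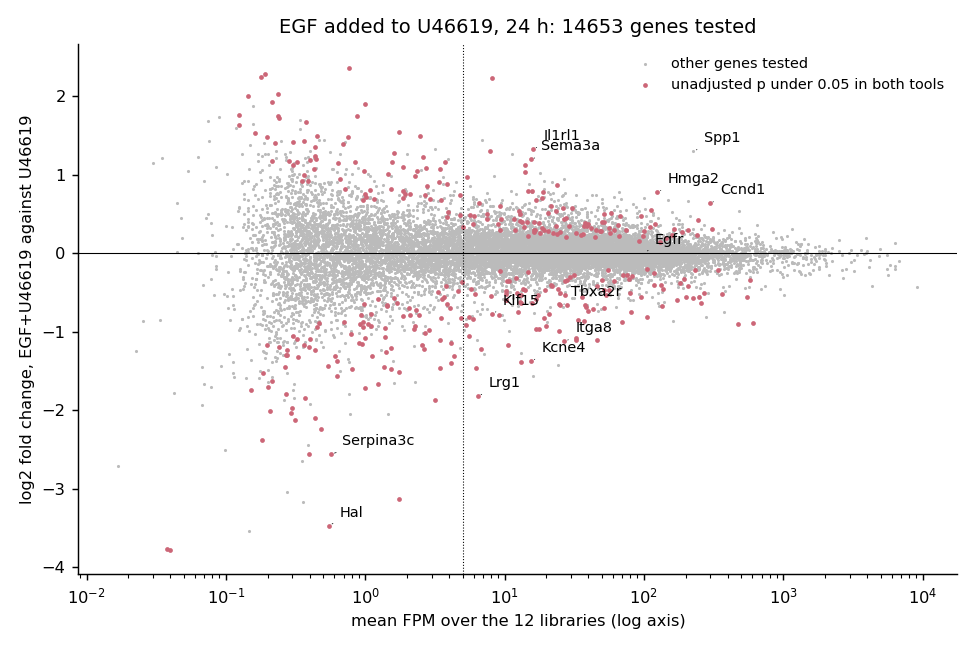
The plot sets the log2-fold change of EGF+U46619 against U46619 at 24 h (vertical axis) against the mean level in FPM on a log axis, with 1 point per gene tested. Red points are the 364 genes with an unadjusted p under 0.05 in both tools, the dotted line is the 5 FPM minimum, and no gene passed the adjusted threshold.

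The receptors and ligands of the pathway come first. Egfr itself (chromosome 11, 16752203 to 16918158) ran from 25.6 to 184.8 FPM with U46619 (median 105.0) and from 28.1 to 164.5 FPM with EGF+U46619 (median 110). Its log2-fold change was 0.01 ± 0.23 (SE, n = 6 mice), with a 95% interval of −0.45 to 0.47. Tbxa2r, which encodes the TP, had a median of 30.6 FPM with U46619 (17.5 to 38.8) and 17.2 FPM with EGF+U46619 (11.3 to 35.8). The groups overlapped, the log2-fold change was −0.66 ± 0.32 (SE) and the gene was lower in 5 of 6 mice. Of 11 EGFR ligands and ERBB receptors tested, 10 had a positive log2-fold change (median 0.35). Of the 11, 0 had a p under 0.05 in both tools and 0 were higher in 6 of 6 mice. Fitting only the 2 groups gave 3 of 7 higher and 0 lower by p in both tools, beside 5.61% and 4.56% of all genes. DESeq2 alone called 1 of the 7 in that fit, Hbegf, as higher, beside 1.09% of all genes. Among the ligands, Ereg (epiregulin) had a log2-fold change of 0.35 ± 0.28 and Tgfa (transforming growth factor alpha) of 0.51 ± 0.28. Erbb3, a partner receptor of the EGFR, reached at most 1.08 FPM in any of the 12 libraries.

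Of 33 ERK target genes and feedback inhibitors tested, 26 had a positive log2-fold change and the median was 0.24, with the median per mouse between 0.11 and 0.52. Higher in 6 of 6 mice were 9 of the 33, among them Ccnd1, Egr3 and Dusp4, and 1 was lower in 6 of 6. Of all genes, 3.86% were higher and 2.59% lower in 6 of 6. Ccnd1 (cyclin D1, the starter of the G1 phase; chromosome 7, 144929931 to 144939925) ran from 114 to 296 FPM with U46619 (median 249) and from 193 to 525 FPM with EGF+U46619 (median 345). The ranges overlapped, and its log2-fold change was 0.64 ± 0.25 (SE). Egr3, an immediate early zinc finger factor (chromosome 14, 70077203 to 70082614), ran from 1.32 to 5.12 FPM with U46619 (median 3.80) and from 2.05 to 20.1 FPM with EGF+U46619 (median 5.42), a log2-fold change of 0.97 ± 0.46. Dusp4, a phosphatase that removes the activating phosphates of ERK, had medians of 76.7 and 101.03 FPM and a log2-fold change of 0.60 ± 0.32. Ccnd1 and Egr3 were the 2 members of the list that were higher with a p under 0.05 in both tools, beside 1.13% of all genes. Fos, an immediate early gene like Egr3, was the 1 member lower by p in both tools, with a log2-fold change of −0.53 ± 0.26, and was lower in 5 of 6 mice. In the fit of only the 2 groups 14 of 32 members were higher and 3 lower by p in both tools, beside 5.61% and 4.56% of all genes.

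All 38 mitosis genes tested had a positive log2-fold change, between 0.35 and 0.95 with a median of 0.58. Of these, 16 were higher in 6 of 6 mice, beside 3.86% of all genes, and 0 had a p under 0.05 in both tools. That count depended on which libraries were fitted: with only the 2 groups, 36 of the 38 were higher by p in both tools, beside 5.61% of all genes. In that fit 23 were called higher by DESeq2 alone, beside 1.09% of all genes, and 0 by edgeR. Cenpf, a kinetochore protein, ran from 2.80 to 51.7 FPM with U46619 (median 14.3) and from 5.49 to 98.5 FPM with EGF+U46619 (median 20.3), a log2-fold change of 0.95 ± 0.63. Bub1b, a kinase of the spindle checkpoint, had medians of 27.4 and 38.2 FPM and a log2-fold change of 0.74 ± 0.45, and was higher in 6 of 6 mice. The 95% intervals were wide, from −0.34 to 2.23 for Cenpf and from −0.17 to 1.65 for Bub1b. The size differed between mice: the median of the 38 genes was 0.59, 0.29, 1.22, 0.44, 0.56 and −0.16 in mice 1 to 6. Of 51 genes of DNA replication and S phase, 49 had a positive log2-fold change with a median of 0.25. Higher in 6 of 6 mice were 13, beside 3.86% of all genes, and 0 had a p under 0.05 in both tools. The fit of only the 2 groups gave 27 higher by p in both tools, beside 5.61% of all genes. Pole, the catalytic subunit of a replicative polymerase, had medians of 23.5 and 36.2 FPM and a log2-fold change of 0.50 ± 0.39. Pola2, a subunit of the polymerase that lays down primers, had 0.29 ± 0.19, and Cdca7, a partner of a chromatin remodeller, 0.30 ± 0.23.

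Promoters of the 2 division lists are shown because nearly all of their members had positive values and because such genes are known for shared promoter elements, the CCAAT box and the CHR (TTTGAA) of mitotic genes and the E2F elements TTTGGCG and TTCCCGC of replication genes. Windows of 300 bases, 250 before and 50 after the start, were taken from RefSeq (GRCm38.p6) and searched on both strands, and the motifs were chosen after the values were seen. Of 31 mitosis genes with a window, 77.4% held CCAAT, 71.0% TTTGAA and 64.5% both, beside 41.1%, 20.2% and 7.97% of all 27025 windows. Of 42 replication genes with a window, 28.6% held TTTGGCG, 38.1% TTCCCGC and 59.5% at least 1 of them, beside 1.77%, 5.29% and 6.83% of all windows. CCAAT was also held by 59.5% of the replication windows, and TTTGAA by 14.3%. At least 1 of the E2F elements was held by 6.45% of the mitosis windows. A match describes the letters only. The windows of Bub1b (chr2:118597961-118598260, plus strand), Cenpf (chr1:189688037-189688336, minus strand), Pola2 (chr19:5964157-5964456, minus strand) and Cdca7 (chr2:72475969-72476268, plus strand) are printed 5′ to 3′, with the CCAAT and TTTGAA matches of the first pair and the E2F matches of the other pair in capitals, on either strand.
Bub1b: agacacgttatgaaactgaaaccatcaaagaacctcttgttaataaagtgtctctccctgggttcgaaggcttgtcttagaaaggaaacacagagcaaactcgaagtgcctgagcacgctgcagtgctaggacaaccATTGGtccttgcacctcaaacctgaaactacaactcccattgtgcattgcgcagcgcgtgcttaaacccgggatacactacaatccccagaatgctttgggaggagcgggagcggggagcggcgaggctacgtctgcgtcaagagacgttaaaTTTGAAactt
Cenpf: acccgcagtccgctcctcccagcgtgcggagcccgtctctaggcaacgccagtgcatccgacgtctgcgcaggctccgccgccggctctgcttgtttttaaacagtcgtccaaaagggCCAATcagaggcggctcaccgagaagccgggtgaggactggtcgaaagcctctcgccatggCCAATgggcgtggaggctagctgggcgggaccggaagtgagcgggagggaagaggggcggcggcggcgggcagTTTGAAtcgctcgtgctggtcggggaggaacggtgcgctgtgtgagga
Pola2: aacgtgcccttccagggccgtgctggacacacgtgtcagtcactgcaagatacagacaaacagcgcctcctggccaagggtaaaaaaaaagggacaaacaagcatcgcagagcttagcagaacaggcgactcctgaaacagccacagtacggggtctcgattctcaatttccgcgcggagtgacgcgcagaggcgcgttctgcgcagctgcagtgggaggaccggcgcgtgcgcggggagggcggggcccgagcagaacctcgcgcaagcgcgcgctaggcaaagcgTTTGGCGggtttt
Cdca7: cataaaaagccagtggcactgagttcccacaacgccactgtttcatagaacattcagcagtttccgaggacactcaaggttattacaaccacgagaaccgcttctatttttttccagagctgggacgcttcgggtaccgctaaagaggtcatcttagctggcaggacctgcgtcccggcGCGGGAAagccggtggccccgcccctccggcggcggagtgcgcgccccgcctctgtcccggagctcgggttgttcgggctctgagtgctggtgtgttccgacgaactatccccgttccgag

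The 15 genes with the largest positive log2-fold changes were taken among genes with an unadjusted p under 0.05 in both tools, at least 5 FPM and a higher value in 6 of 6 mice, so these features describe the choice and are not findings. Sema3a, a secreted guidance cue (chromosome 5, 13125414 to 13602565), ran from 0.49997 to 33.0 FPM with U46619 (median 1.73) and from 1.21 to 126 FPM with EGF+U46619 (median 3.81), a log2-fold change of 1.20 ± 0.39 (SE). Mouse 3 had the highest level in both groups, and the next highest were 4.18 and 5.83 FPM in mouse 2. Sema3e, of the same family (chromosome 5, 14025276 to 14256689), had medians of 10.1 and 22.9 FPM and a log2-fold change of 0.87 ± 0.41. Hmga2, an architectural chromatin protein of growing cells (chromosome 10, 120361275 to 120476469), ran from 12.1 to 137 FPM with U46619 (median 104) and from 37.8 to 213 FPM with EGF+U46619 (median 179.2), a log2-fold change of 0.79 ± 0.34. Notch1, a receptor for cell contact signals, had medians of 15.2 and 23.0 FPM and a log2-fold change of 0.58 ± 0.25. Fam171a1 (chromosome 2, 3114224 to 3227806) had the smallest error of the 15: it ran from 33.8 to 72.5 FPM (median 43.9) and from 52.1 to 87.6 FPM (median 64.1), a log2-fold change of 0.52 ± 0.12 with an edgeR FDR of 0.584. Ccnd1 and Egr3, given with the ERK targets, were among the 15, and the others were Crybg1, Podxl, Apol9a, Syne3, Ralgapa2, Ank, Ddx11 and Asap2, with log2-fold changes of 0.54 to 0.80, and Apol9a shares sequence with its neighbour Apol9b, so its counts are uncertain.

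The 15 genes with the largest negative log2-fold changes were chosen by the same rule. Lrg1, a secreted leucine-rich glycoprotein (chromosome 17, 56119678 to 56122001), ran from 0.174 to 48.4 FPM with U46619 (median 3.35) and from 0 to 8.37 FPM with EGF+U46619 (median 1.92), a log2-fold change of −1.82 ± 0.50. Kcne4, a subunit that dampens potassium channels (chromosome 1, 78816758 to 78820028), ran from 5.42 to 42.3 FPM (median 18.7) and from 1.89 to 36.3 FPM (median 4.43), a log2-fold change of −1.37 ± 0.37. The ranges overlapped for both, and the lower value in each mouse was part of the rule of choice. In mice 1 and 2, Lrg1 was near 0 in both groups, at 0.174 and 0.275 FPM with U46619 and 0 and 0.0511 FPM with EGF+U46619. Aoc3, an amine oxidase of vascular smooth muscle (chromosome 11, 101330605 to 101341938), ran from 1.55 to 100.9 FPM (median 77.4) and from 1.41 to 75.5 FPM (median 33.9), a log2-fold change of −1.11 ± 0.33. Itga8, an integrin subunit abundant in smooth muscle (chromosome 2, 12106632 to 12301922), ran from 6.38 to 109 FPM (median 25.7) and from 2.31 to 43.5 FPM (median 15.9), a log2-fold change of −1.12 ± 0.37. For both, the level differed more between mice of a group than between the medians of the groups. Ccn3, a matricellular protein, had medians of 48.5 and 19.5 FPM and a log2-fold change of −1.11 ± 0.40. The other 10 were Gal3st2, Map3k7cl, Ggt5, Rasgrp2, Cdo1, Syt13, Ogn, Serpina3n, Ppp1r14a and Rasl11a, with log2-fold changes of −1.31 to −0.85. Serpina3n belongs to a cluster of near-identical serpin genes whose reads may be shared.

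**Figure D2:**
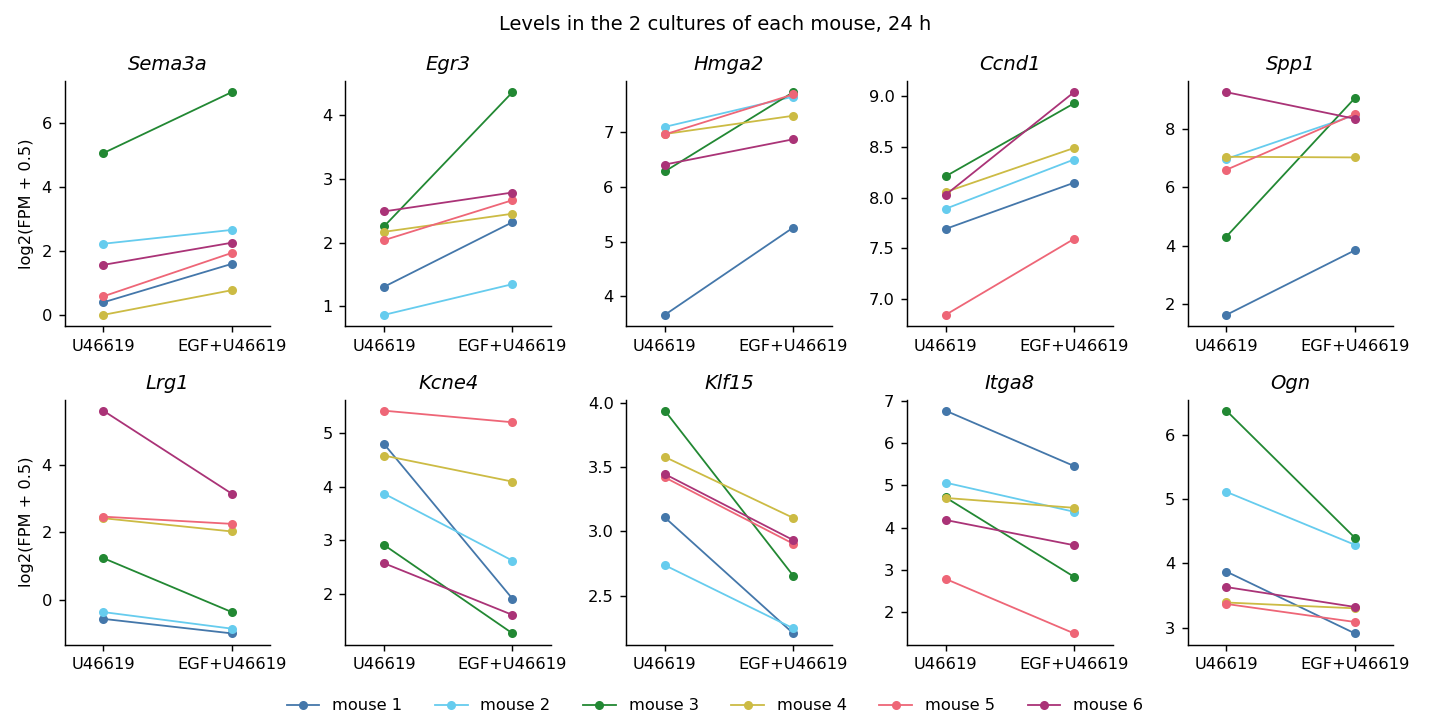
Levels of 10 named genes as log2(FPM + 0.5), with U46619 and EGF+U46619 cultures of the same mouse joined by a line and 1 panel per gene. In every panel but that of Spp1, higher in 4 of 6 mice, the 6 lines share a direction, and the ranges of the groups overlap. Apart from Spp1 and Klf15, the genes shown were chosen for a shared direction in 6 of 6 mice.

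Of 32 genes of contractile smooth muscle, 27 had a negative log2-fold change and the median was −0.28. In 6 of 6 mice 4 were lower and 1 (Mrtfb) was higher, beside 2.59% and 3.86% of all genes. With a p under 0.05 in both tools 2 were lower and 1 higher, beside 1.35% and 1.13% of all genes. In the fit of only the 2 groups 14 of 30 were lower and 1 higher, beside 4.56% and 5.61% of all genes. Myl9, the regulatory light chain of smooth muscle myosin, ran from 537 to 1856 FPM with U46619 and from 192 to 1646 FPM with EGF+U46619, a log2-fold change of −0.53 ± 0.28. Ppp1r14a, an inhibitor of myosin phosphatase (chromosome 7, 29289308 to 29293801), ran from 13.5 to 76.7 FPM (median 46.1) and from 3.27 to 41.8 FPM (median 30.5), a log2-fold change of −0.87 ± 0.39. The median of the list per mouse lay between −0.79 and 0.10 and was negative in 4 of 6 mice. The summed smooth muscle markers, a sum made up mostly of Acta2, were lower in 6 of 6. Mrtfb, a cofactor of serum response factor, had a log2-fold change of 0.26 ± 0.12.

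Of 24 small leucine-rich proteoglycans and matricellular proteins, 20 had a negative log2-fold change with a median of −0.34. With a p under 0.05 in both tools 6 were lower, beside 1.35% of all genes. In 6 of 6 mice 5 were lower, beside 2.59% of all genes. In the fit of only the 2 groups 12 of the 24 were lower and 1 higher by p in both tools, beside 4.56% and 5.61% of all genes. Ogn (osteoglycin) ran from 9.84 to 82.7 FPM with U46619 (median 13.0) and from 7.02 to 20.6 FPM with EGF+U46619 (median 9.43), a log2-fold change of −0.93 ± 0.41. Podn (podocan), which restrains growth of smooth muscle cells, had medians of 48.7 and 32.0 FPM and a log2-fold change of −0.65 ± 0.22. Lum (lumican) and Aspn (asporin) had −1.46 ± 0.66 and −1.02 ± 0.43 and were lower in 5 of 6 mice each. Mouse 3 had the lowest list median, −0.96, and adventitial fibroblast markers, among which lumican also stands, were highest in that mouse, at 2289 FPM with U46619 and 1320 FPM with EGF+U46619. The part of those markers in the result was not tested. Spp1 (osteopontin), of the same list, ran from 2.61 to 612 FPM with U46619 (median 111) and from 13.9 to 531 FPM with EGF+U46619 (median 340), a log2-fold change of 1.30 ± 0.68, and was higher in 4 of 6 mice. Of 36 collagen and elastic fibre genes 28 were negative with a median of −0.15. With a p under 0.05 in both tools 1 was lower (Fbln7, fibulin 7, −0.71 ± 0.34), beside 1.35% of all genes. Fitting only the 2 groups gave 2 higher and 7 lower of 33, beside 5.61% and 4.56% of all genes. Of 27 proteases and inhibitors 17 were negative with a median of −0.15 and 0 had a p under 0.05 in both tools. Fitting only the 2 groups gave 1 higher and 10 lower of 24, beside 5.61% and 4.56% of all genes. In 6 of 6 mice 5 were lower and 2 higher, beside 2.59% and 3.86% of all genes. Adamts1 was at −0.59 ± 0.34 and Serpinb2 at 1.44 ± 0.62.

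Ribosome biogenesis had 36 of 39 genes positive at a median of 0.15, with 1 higher by p in both tools, beside 1.13% of all genes. The count was 10 of 39 in the fit of only the 2 groups, beside 5.61% of all genes. Polr1b, a subunit of RNA polymerase I, was at 0.30 ± 0.16. The medians were −0.02 for 30 genes of amino acid supply and 0.07 for 28 of cholesterol and fatty acid synthesis. They were 0.00 for 28 of glycolysis and hypoxia and −0.03 for 36 FOXO targets. Fitting only the 2 groups gave, in this order, 4 higher and 2 lower of 30, 2 and 0 of 27, 0 and 1 of 28, and 0 and 5 of 34. Of all genes, 5.61% were higher and 4.56% lower in that fit. In the FOXO list, Klf15, a factor of the quiescent smooth muscle state (chromosome 6, 90462576 to 90475238), ran from 6.17 to 14.8 FPM with U46619 (median 10.3) and from 4.12 to 8.10 FPM with EGF+U46619 (median 6.39). Its log2-fold change was −0.77 ± 0.22 and it was lower in 6 of 6 mice. Cytokines and chemokines (20 genes) had a median of 0.05, with Il6 at −0.71 ± 0.41. In this list Il1rl1, the receptor of interleukin 33, was at 1.33 ± 0.43 and was higher in 4 of 6 mice. Prostanoid synthesis and receptors (19 genes) had a median of 0.02, with Ptger4, a prostaglandin E2 receptor, at 0.56 ± 0.39 and Ptgs1, a cyclooxygenase, at 0.21 ± 0.14. Senescence genes (24) had a median of 0.03, with Hmga2 and Mdm2 (0.31 ± 0.14) higher and Igfbp2 (−0.64 ± 0.29) lower by p in both tools. Fitting only the 2 groups gave 6 higher and 3 lower of the 24, beside 5.61% and 4.56% of all genes. Marker lists had medians of −0.18 for 15 adventitial fibroblast, 0.07 for 14 endothelial and 0.15 for 7 leukocyte genes. Interferon response genes had a median of 0.32 over 27 genes, 22 of them positive. By p in both tools 2 were higher (Rsad2 and Mx1) and 0 lower, beside 1.13% and 1.35% of all genes. In 6 of 6 mice 1 each was higher and lower. Fitting only the 2 groups gave 6 higher and 3 lower of 26, beside 5.61% and 4.56% of all genes. An interaction p under 0.05 in both tools was held by 6 of the 27, beside 3% of all genes. Rsad2, an antiviral enzyme, reached at most 3.40 FPM with U46619 and 9.94 FPM with EGF+U46619, a log2-fold change of 1.49 ± 0.53. The interferon median was −0.49 for EGF against control and −0.04 at 48 h.

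**Figure D3:**
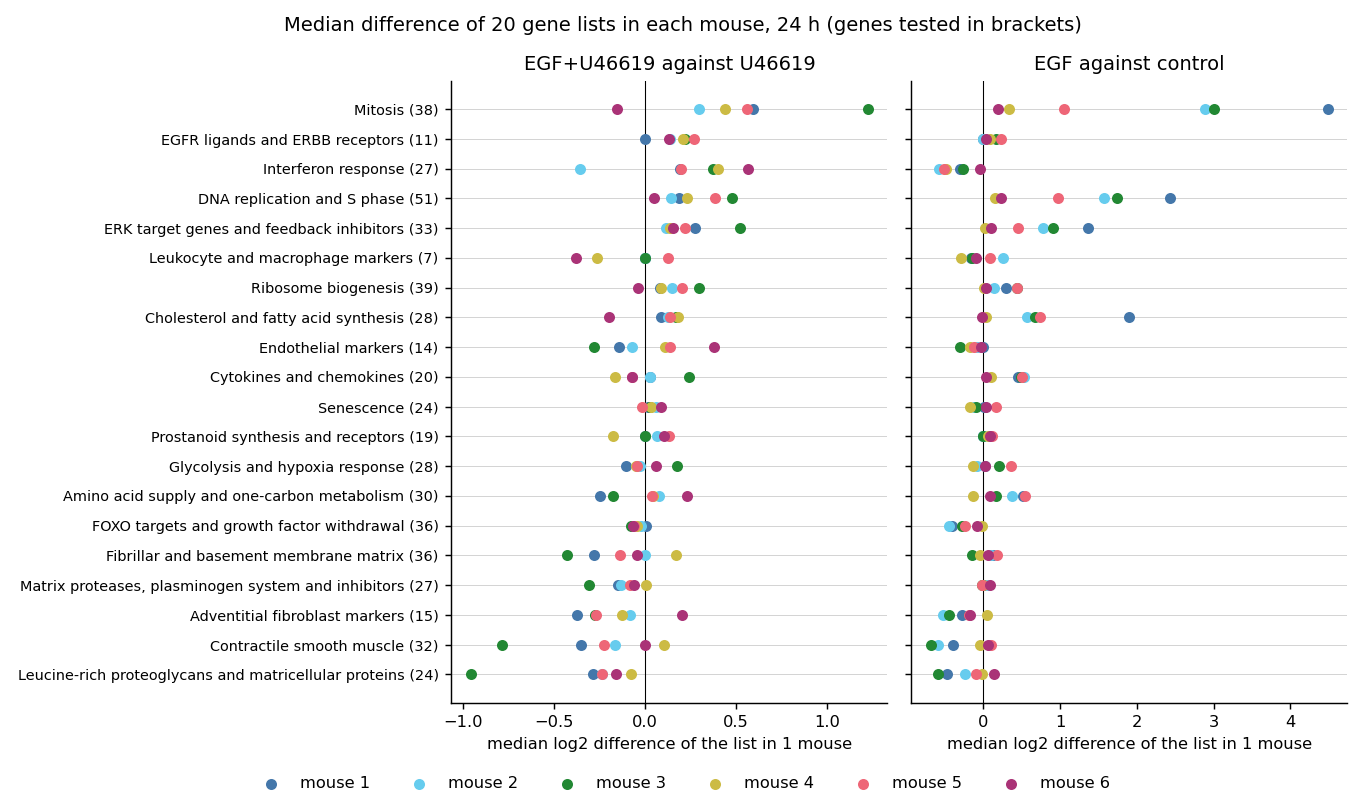
Median log2 difference of 20 gene lists (horizontal axis) in each of the 6 mice, 1 point per mouse, for EGF+U46619 against U46619 on the left and EGF against control on the right. On the left the ERK and replication lists lie above 0 in all 6 mice and the proteoglycan list below 0 in all 6, while mitosis spans −0.16 to 1.22.

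The study singled out 12 genes for the combination of EGF and U46619, of which 11 were measured here. The study asked for a difference at 24 h or 48 h, so its choice used these samples, those of 48 h or both. The choice is not independent evidence for the values here. The study also measured Klf15 and Spp1 by qPCR in RNA from other mice, and secreted osteopontin by ELISA. With EGF+U46619 against U46619 their log2-fold changes ran from −0.77 (Klf15) to 1.30 (Spp1) with a median of −0.09, and 8 of 11 were negative. Gstm2, a glutathione transferase, had −0.40 ± 0.19 and Klf15 −0.77 ± 0.22, both lower by p in both tools, and Mtap, an enzyme of methionine salvage, had 0.22 ± 0.10 and was higher. The other 7 besides Spp1 lay between −0.39 (Gm6665) and 0.07 (Tpst1).

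EGF was also given without U46619, to other cultures of the same mice, so that its effect can be set beside the one on top of U46619. By the call rule, EGF against control called 4 genes (edgeR alone 4, DESeq2 alone 397). Without adjustment, 2546 genes (17.4%) had a p under 0.05 in both tools, 1141 higher and 1405 lower, and are named EGF response genes here. Of these, 2162 (84.9%) had the same sign in EGF+U46619 against U46619, beside 66.3% of all genes tested. The 1141 higher genes had a median log2-fold change of 0.61 with EGF alone and 0.20 with EGF on top of U46619, and the 1405 lower genes of −0.57 and −0.14. In EGF+U46619 against U46619, 116 of the 2546 passed a p under 0.05 in both tools with the same sign and 0 with the opposite sign. Of all 14653 genes, 364 passed it in either direction. Since they were chosen on the response to EGF alone, their smaller size on top of U46619 is a description. The test of the difference, the interaction of EGF and U46619 over all 14653 genes, called 0 genes by FDR in edgeR or in DESeq2, and 440 (3% of all genes) had a p under 0.05 in both. By list, the median was 1.46 with EGF alone and 0.58 on top of U46619 for mitosis, 1.13 and 0.25 for DNA replication, 0.69 and 0.24 for ERK targets, and −0.28 and −0.28 for contractile genes. Interaction p-values under 0.05 in both tools were held by 0 of 38 mitosis, 14 of 51 replication and 8 of 33 ERK genes.

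**Figure D4:**
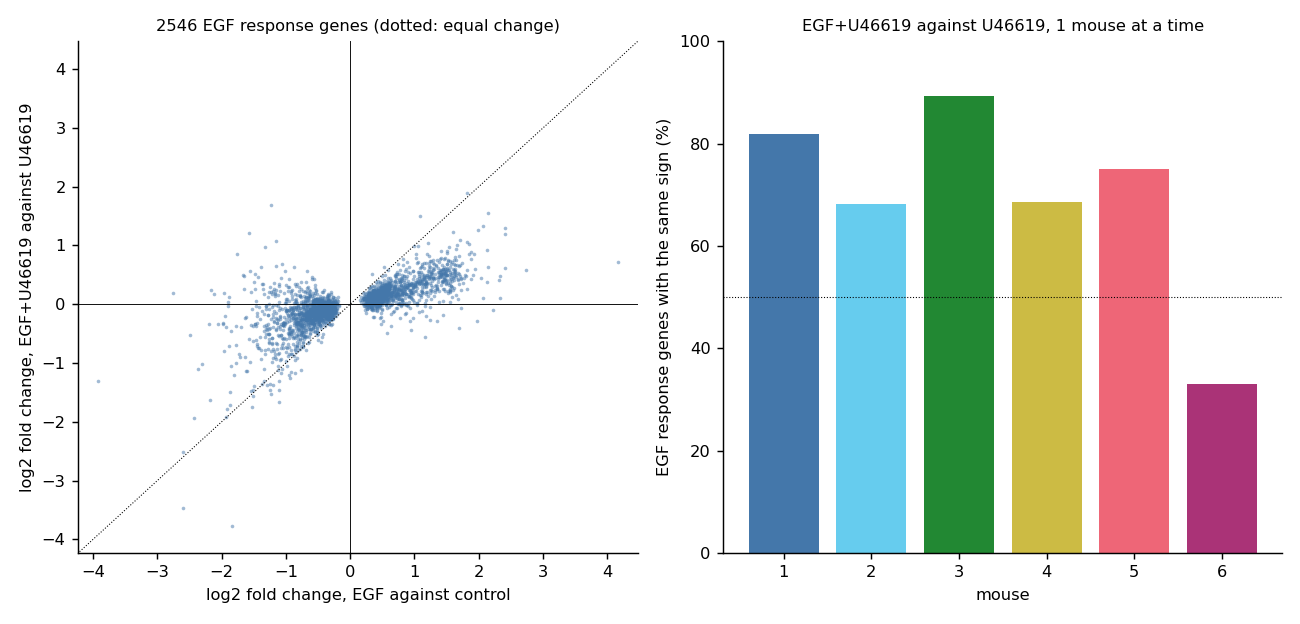
The plot shows the 2546 genes with an unadjusted p under 0.05 in both tools for EGF against control. The log2-fold change of that comparison is on the horizontal axis and that of EGF+U46619 against U46619 on the vertical axis. The left panel has 1 point per gene and the right panel gives as bars the share with the same sign in each mouse, 33.0% in mouse 6 and 68.2% to 89.2% in the others.

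The standard deviation over genes of the difference within a mouse, on log2(FPM + 0.5), was 0.371, 0.217, 0.475, 0.285, 0.240 and 0.414 in mice 1 to 6. The correlation across genes of a mouse's differences with the mean of the others, a description over genes that share the same libraries, was 0.42, 0.38, 0.52, 0.33, 0.58 and −0.24. Mouse 6 was the only 1 of the 6 with a negative value, and its share of EGF response genes with the same sign was 33.0%, beside 68.2% to 89.2% in the others. Its own EGF against control differences had the smallest standard deviation, 0.180, beside 0.358 to 0.859. Endothelial markers were highest in mouse 6, at 2036 FPM with U46619 and 2617 FPM with EGF+U46619, beside 625.01 and 646 FPM in mouse 4 as the next highest. The part of those markers in the result was not tested. Without mouse 6 the comparison still called 0 genes.

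In the EGF+AngII+U46619 cultures, which share the U46619 cultures as their reference, 0 genes were called and 903 (6.16%) had a p under 0.05 in both tools. The median was 0.47 for mitosis (0.58 without AngII), 0.34 for replication (0.25), −0.25 for contractile genes (−0.28) and −0.37 for proteoglycans and matricellular proteins (−0.34). Ccnd1 had a log2-fold change of 0.26 with AngII and 0.64 without, and Itga8 of −1.13 and −1.12. The EGF+AngII+U46619 library of mouse 3 had 15716 genes with a count, the fewest of the 24 h libraries used here, and Ccnd1 at 157.2 FPM against 296 FPM with U46619. Without mouse 3 the values with AngII were 0.47 for Ccnd1 and −0.73 for Itga8, and the list medians 0.49, 0.30, −0.16 and −0.27. The 903 genes became 351 without mouse 3 and 1663 without mouse 1. The mean of both EGF groups against U46619 called 0 genes as well, with 567 (3.87%) at a p under 0.05 in both tools. Without the 5 FPM minimum it called Hal (−3.24) and Serpina3c (−2.16), 2 genes of at most 1.02 FPM in any group mean. With U46619, Hal stood above 0.150 FPM only in mice 3 and 5. Without mouse 6 it called Nkd1, an inhibitor of Wnt signalling (−1.21), Pmp22, a membrane protein (−0.63), and Chrd, the BMP antagonist chordin (−0.75). These 3 were named after their values were seen, and the FDR of edgeR with all mice was 0.472 to 0.767.

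At 48 h, in 5 culture sets of a separate incubation, 1 gene was called. Prl2c3, of the prolactin family, had a log2-fold change of 0.83 ± 0.13 (SE, edgeR FDR 0.0404) and was higher in 5 of 5 sets. The call was lost without set 2, 3 or 5 and without the replicate block, and DESeq2 alone called 9 genes and a fit of only the groups compared 62. It was named after its values were seen, it has near-identical neighbours that can share its reads, and its log2-fold change at 24 h was 1.30. Of the 364 genes with a p under 0.05 in both tools at 24 h, 343 were tested at 48 h and 275 (80.2%) had the same sign, beside 62.7% of the 14179 genes tested at both times. The median size was 0.69 at 24 h, on which the genes were chosen, and 0.19 at 48 h. Of the 15 highest genes 13 had the same sign at 48 h, and of the 15 lowest all 15. Among these, 6 and 7 had a p under 0.05 in both tools at 48 h with the same sign and 0 with the opposite sign, beside 3.96% of all 14634 genes tested at 48 h in either direction. Egr3 was at 1.08 and Hmga2 at 0.49, both higher in 5 of 5 sets, and Kcne4 at −0.59 and Aoc3 at −0.43, both lower in 5 of 5. Spp1 had a log2-fold change of 2.15 at 48 h and was higher in 5 of 5 sets. The mitosis median was 0.06 at 48 h and that of replication genes 0.08, while that of contractile genes was −0.26. The difference between the times was not tested.

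**Figure D5:**
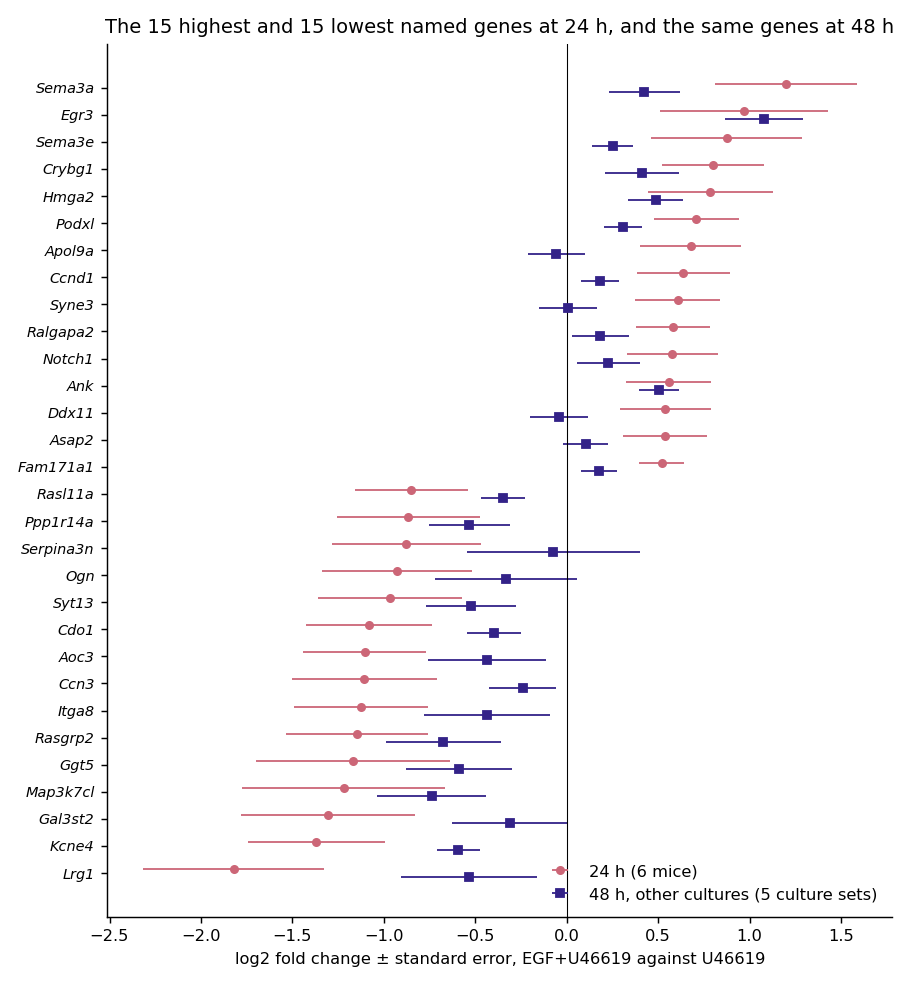
Log2-fold changes of EGF+U46619 against U46619 for the 15 highest and 15 lowest named genes at 24 h (6 mice) and the same genes at 48 h (5 culture sets). Of the 30 genes, 28 keep their sign at 48 h.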

How the data were processed

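Reads of poly(A)-enriched RNA were aligned by the authors to mm10 with HISAT2 2.1.0 and counted per Ensembl gene with featureCounts, multi-mapping reads included, so near-identical genes can share reads. The deposited values are raw counts per gene, not normalised. One model of mouse and treatment was fitted over all 42 libraries of 24 h with edgeR 4.0.16 (quasi-likelihood test, TMM) and DESeq2 1.42.0 (Wald test) in R 4.3.3, and over 20 libraries of batch 1 at 48 h with the culture set as block. The Benjamini-Hochberg adjusted p (FDR) covers all 14653 genes. FPM are counts scaled to a common library size by TMM. The call rule leaves out the study's further filter across both times. The SE is that implied by edgeR's F statistic. Differences within a mouse used a pseudocount of 0.5. Same-mouse cultures correlated at 0.838 to 0.955 in their deviations from group means, other pairs at most 0.320, and the labels give the mouse, hence the block. No 2 libraries agreed within sampling noise. Coordinates are GENCODE vM21 (GRCm38). Members and gene lists were chosen with earlier results of these data known. Named genes were Egfr, Tbxa2r, the study's list, any gene called by either tool, the 15 highest and lowest by the rule in the text and the 4 lowest p of each list. Scripts were tested on simulated data. P-values rest on the spread between cultures left after mouse and treatment are fitted, estimated at 24 h over all 7 groups of this one experiment. At 48 h the culture set took the place of the mouse, and 2 of the 5 sets carry the same mouse number. The 48 h libraries without U46619 of batch 2 were not used here.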

Additional observations from a re-analysis of the deposited data

Results flagged for a closer look

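Of 120 groups of 6 values examined, 10 had a highest or lowest value set apart by more than 0.625 of the range (Dixon's limit for 6 values). That limit is passed about 1 time in 20 only by independent values with a normal distribution. The groups share mice and genes, and the marker sums are FPM that were not log-transformed, so the 10 are a description. Mouse 6 stood apart in 6 of them and mouse 3 in 4. For mouse 6 the gap was 0.727 of the range for the difference of Serpina3c, 0.753 for the median of the cholesterol and fatty acid synthesis list, 0.626 for the share of EGF response genes with the same sign and 0.696 for the correlation with the other mice. Its endothelial markers gave 0.694 with U46619 and 0.754 with EGF+U46619. For mouse 3 it was 0.791 for Sema3e, 0.657 for Kif20a, 0.762 for the median of the proteoglycan and matricellular list and 0.784 for the adventitial fibroblast markers with U46619. The part of these markers in the results was not tested. Apol9a, an interferon-responsive apolipoprotein gene, was higher with EGF in 6 of 6 mice on top of U46619 (log2-fold change 0.68) and lower in 6 of 6 without it (−0.56). The interaction was 1.23 with an edgeR FDR of 1.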

How the results depend on the processing

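The count of 0 genes called at 24 h for EGF+U46619 against U46619 held under the other settings run and without each mouse, except that DESeq2 alone in a fit of only the groups compared called 232, a setting added after seeing the data. The 364 genes with an unadjusted p in both tools became 211 with at least 10 counts in every library, 1297 in a fit of only the groups compared, 1242 with limma on differences within mice, and 258 to 495 without 1 mouse. Without the replicate block, which the shared mouse supports, that count was 45; the fit without the block changed no other call than those given here. The mean of both EGF groups called 2 without the FPM minimum and 0 to 3 without 1 mouse (3 without mouse 6). At 48 h the 1 gene called became 9 with DESeq2 alone, 0 without the replicate block, 62 in a fit of only the groups compared and 0 to 1 without 1 set (0 without set 2, 3 or 5). The share of EGF response genes with the same sign was 71.9% to 90.2% without 1 mouse. Egfr turned to −0.0042 without the filter, −0.016 without the block and lay between −0.029 and 0.083 without 1 mouse (negative without 2, 5 or 6), and Fam110b lay between −0.20 and 0.013, positive without mouse 3. The cause of these moves was not tested. Of 1341 alternative values of 86 named genes, 1329 kept direction and side of the threshold, and 6, of Hal and Serpina3c, passed it; this tally leaves out DESeq2 alone in the fit of only the groups compared, in which 44 of the 86 passed (0 in edgeR). Depth limits genes of under 5 FPM most.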

Other observations

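The 232 genes that DESeq2 alone called in a fit of only the 12 libraries, a fit chosen after its result was seen, held 23 of 38 mitosis genes tested there, all higher, among them Ccnb1, Aurkb, Plk1 and Mki67. They also held 8 of 32 ERK target genes, all higher (Dusp4, Dusp6, Lrig1, Etv4, Etv5, Egr3, Fosl1 and Ccnd1), and 3 of 51 replication genes, Chaf1a, Pole and Uhrf1, beside 1.09% of all genes called higher. Lower among them were 4 of 30 contractile genes (Myh11, Myl9, Itga8 and Ppp1r14a) and 5 of 24 of the proteoglycan and matricellular list (Lum, Ogn, Prelp, Podn and Ccn5), beside 0.729% of all genes called lower. Ptgs2, the inducible cyclooxygenase, was higher and Tbxa2r, the receptor of U46619, lower. In the other cultures of 48 h, 207 of the 232 had the same sign as at 24 h, beside 8094 of 12725 genes tested in both fits. At 48 h, 62 of the 232 had a p under 0.05 in both tools with the same sign and 0 with the opposite sign. Of all 14634 genes tested at 48 h, 3.96% had such a p in either direction. The lowest edgeR FDR in that fit was 0.0765.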
